A study of Rattus norvegicus with 6 samples.

Results

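Mucins of the rat colon were followed by gene name in 9 single-nucleus RNA libraries. The set named Muc13, Muc1, Muc4, Muc20 and Muc2, and 4 of these 5 genes were found among the 17388 genes counted. Muc13, Muc1 and Muc20 were listed under their own symbols. Muc2 was taken as AABR07006030.1, a name that RefSeq gives as a synonym of Muc2 and that lay between Ap2a2 and Tollip in the gene order of the tables. In RefSeq Muc6 and Muc5b flank Muc2, with Ap2a2 and Tollip next to them. The match rests on these 2 facts, was not checked against a genome of the same build, and underlies every Muc2 value given here. Muc4, a transmembrane mucin that binds the receptor ErbB2, was not analysed here. The genes were chosen by name, with earlier results of these data known. The paper on these data had already reported Muc13 as higher than placebo in sham and PL8177 enterocytes. The values of Muc13 given here are therefore not an independent finding.

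Mucins are large proteins whose extracellular stretches are densely coated with O-linked sugars. Transmembrane mucins such as Muc13, Muc1 and Muc20 stay anchored in the apical membrane of epithelial cells, where they form the glycocalyx and carry short cytoplasmic tails that can take part in signalling. Muc2 is secreted by goblet cells and forms the gel that lines the colon, while Muc13 is a typical surface mucin of colonic enterocytes.

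Colon nuclei of wild-type male Wistar rats came from 3 treatments with 3 rats each. Sham rats drank plain water throughout. Placebo rats drank 5% dextran sulfate sodium (DSS), a polymer that injures the colonic epithelium, for 3 days. They then received placebo capsules without the drug by gavage, given with 6 hours between both daily doses, from day 4 to day 7. PL8177 rats received the same DSS and, on the same schedule, capsules with 50 µg of PL8177, an agonist of the melanocortin 1 receptor. The tables held enterocyte nuclei and T cell nuclei only, so goblet cells had no table of their own. Sham differs from placebo both in DSS and in the capsules, whose effects cannot be told apart. Both comparisons against placebo share the same placebo libraries.

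The enterocyte tables held 8782 nuclei (304 to 1531 a library) with 16849144 UMIs (unique molecular identifiers, each counting 1 captured RNA molecule), and the T cell tables held 1018 nuclei (19 to 685 a library) with 1293322 UMIs. Median depth of the enterocyte nuclei ran from 437 to 2331 UMIs in sham, from 752 to 1912 in PL8177 and from 612 to 2026 in placebo libraries. The enterocyte tables carried their label's genes: enterocyte markers summed to 139 to 303 UMIs per 10000 and T cell markers to at most 0.846. The T cell table of placebo library GR23 went against its label, since T cell markers made up 2.13 UMIs per 10000 there against 24.1 to 56.9 in the other 8 libraries, and 27 of its 685 nuclei passed a rule on T cell markers. The main results that rest on this table are given with and without it. The rule on T cell markers asked for at least 1 T cell marker UMI and no more enterocyte marker UMIs than T cell marker UMIs. Nuclei that passed it, called T cell marker nuclei, were thus also chosen for few enterocyte markers. No more than 1 nucleus barcode was shared between any pair of libraries, with 10 shared over 36 pairs.

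Muc13 dominated the set. Per 10000 UMIs and kilobase of gene span (RefSeq, GRCr8), all enterocyte nuclei pooled gave a level of 1.53 for Muc13, 0.0146 for Muc2, 0.00412 for Muc1 and 0 for Muc20. By raw UMIs within each enterocyte library, Muc13 ranked 7, 5 and 5 among all genes in sham, 11, 7 and 8 in PL8177 and 15, 17 and 18 in placebo. The values below are UMIs per 10000 within 1 gene and are not compared between genes.

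In enterocytes, the Muc13 level was highest in sham, intermediate in PL8177 and lowest in placebo rats. The sham libraries GR12, GR13 and GR15 held 57.7, 101 and 84.8 Muc13 UMIs per 10000. The PL8177 libraries GR41, GR43 and GR44 held 31.4, 49.3 and 42.5. The placebo libraries GR22, GR23 and GR24 held 24.0, 24.7 and 23.7. No sham library overlapped with a PL8177 library and no PL8177 library with a placebo library, and the placebo libraries lay close together while sham spanned the widest range. Means of the 3 treatments were 81.2 ± 22.0, 41.1 ± 9.06 and 24.1 ± 0.512 (SD, n = 3 each). Each of the 3 pairwise exact two-sided permutation tests gave p = 0.1, the smallest that 3 against 3 libraries allow. The full order, every sham library above every PL8177 library and every PL8177 library above every placebo library, was met by 19 of 9424 genes tested (0.202%), Muc13 among them.

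In the edgeR quasi-likelihood fit, Muc13 was higher in sham than in placebo by 1.93 on the log2 scale (SE 0.295), and the Benjamini-Hochberg adjusted p of 0.0580 missed the threshold, although Muc13 ranked 3 by p among all genes tested. For PL8177 against placebo the log2 difference was 0.94 (SE 0.287, edgeR adjusted p = 0.366), and for PL8177 against sham it was -0.99 (SE 0.287, edgeR adjusted p = 0.733). edgeR called 0 of 9424 genes (0%) in each of these 3 comparisons, with 1172, 871 and 621 genes at an unadjusted p under the threshold. DESeq2 on the same genes gave Muc13 a log2 fold change of 1.95 for sham against placebo (adjusted p = 1.42e-07) and called it as 1 of 75 genes higher in sham (0.796%). DESeq2 did not call Muc13 for PL8177 against placebo (0.93, adjusted p = 0.0976; 34 genes higher, 0.361%) or for PL8177 against sham (-1.02, adjusted p = 0.199; 3 genes lower, 0.0318%). The sham against placebo call therefore depended on the tool. It also depended on the libraries: leaving out each in turn gave edgeR adjusted p from 0.0277 (without GR12) to 0.379 (without GR24), with GR41 and GR44 the other libraries whose removal passed the threshold (0.0492 and 0.0431). Without GR23 the difference was 1.91 (edgeR adjusted p = 0.170).

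**Figure D1:**
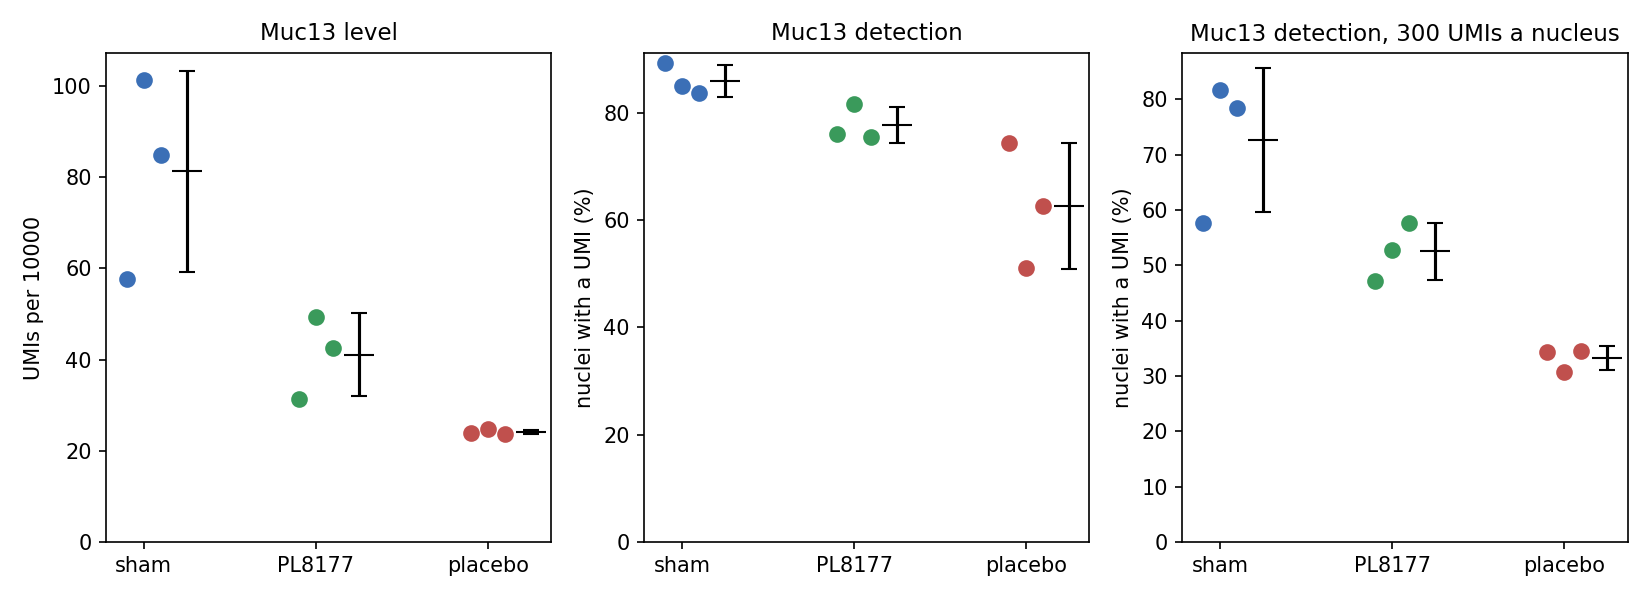
Muc13 in enterocyte nuclei of each library by treatment: UMIs per 10000, percent of nuclei with a Muc13 UMI, and the same percent after each nucleus was thinned to 300 UMIs. Points are libraries and bars are means with SD (n = 3); the placebo libraries lie lowest in all 3 panels, between 23.7 and 24.7 UMIs per 10000 in the first.

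Detection followed the level. A Muc13 UMI was seen in 89.2%, 85.0% and 83.6% of sham nuclei, in 76.0%, 81.6% and 75.5% of PL8177 nuclei and in 74.4%, 51.0% and 62.5% of placebo nuclei, in the library order above. Since a deeper nucleus has more chances to show a UMI, each nucleus was also thinned to 300 UMIs. The thinned shares were 57.7%, 81.7% and 78.5% in sham, 47.3%, 52.9% and 57.6% in PL8177 and 34.3%, 30.7% and 34.6% in placebo. Thinning kept all 3 groups apart, with means of 72.6% ± 13.0, 52.6% ± 5.17 and 33.2% ± 2.15 (SD, n = 3 each; exact permutation p = 0.1 for each pair). The number of genes whose detection separates in this way was not counted, so the separation is not read as particular to Muc13. The gap between sham and placebo grew from 23.3 to 39.4 percentage points with thinning, that between PL8177 and placebo from 15.0 to 19.4, and that between PL8177 and sham from -8.27 to -20.0.

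The nuclei also differed in how much Muc13 they held. Among thinned nuclei, 23.0%, 47.5% and 43.1% of the sham libraries carried at least 3 Muc13 UMIs, against 8.74%, 17.0% and 15.4% for PL8177 and 4.74%, 7.78% and 5.57% for placebo. Across all unthinned enterocyte nuclei, the 3236 with at least 5 Muc13 UMIs held 90.1% of the Muc13 UMIs. Muc13 RNA was thus counted in a large part of the enterocytes and was not limited to a few nuclei.

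Depth moved with the treatment groups, because 2 of the 3 sham libraries were the shallowest of all, so Muc13 was also read within classes of nuclei of like depth. Among nuclei under 500 UMIs the mean level was 79.6 UMIs per 10000 in sham, 26.4 in PL8177 and 13.7 in placebo. Among nuclei with at least 2000 UMIs it was 69.9, 43.8 and 28.4. Every sham library lay above every placebo library in 4 of 4 depth classes. PL8177 and placebo libraries did not overlap in 2 of the 4 classes, the shallowest and the deepest, and the same 2 classes kept sham and PL8177 apart. The smallest number of nuclei in a library was 13 under 500 UMIs and 6 at or above 2000. Other genes that separate within these depth classes were not counted, so this too is not read as particular to Muc13.

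**Figure D2:**
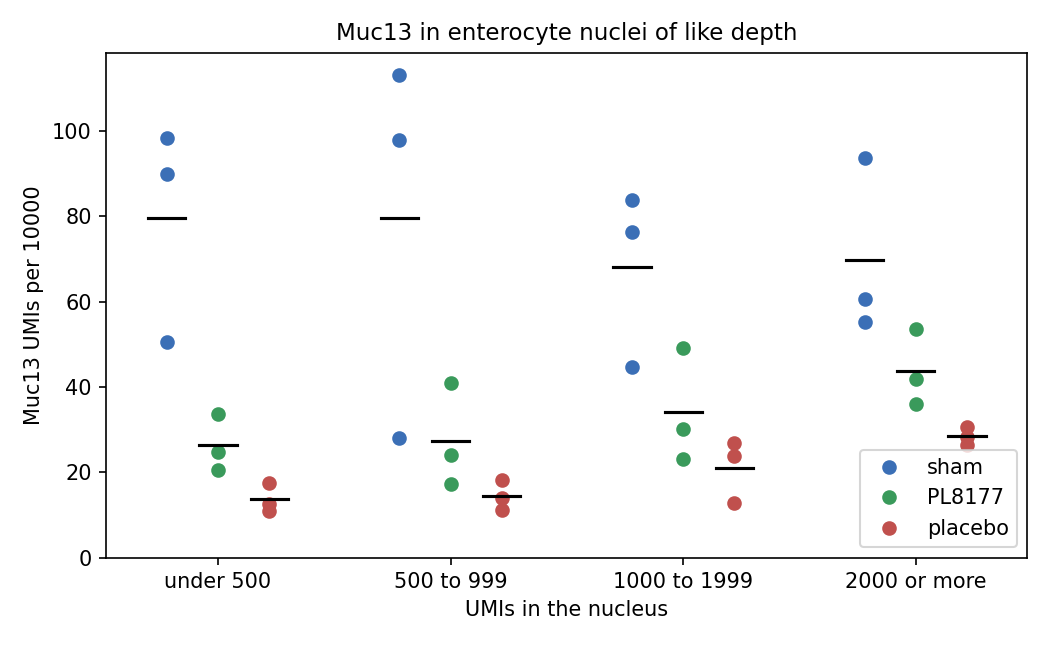
Muc13 UMIs per 10000 in enterocyte nuclei by class of UMIs per nucleus and treatment. Points are libraries and short black bars mark the treatment means (n = 3). In each of the 4 depth classes all sham libraries lie above all placebo libraries.

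Within the enterocyte tables, Muc13 was highest in nuclei that carried the most RNA of mature surface enterocytes. Each library was split at its own median of 12 surface markers, among them Krt20, Car4 and Aqp8, which are keratin, carbonic anhydrase and water channel genes of the upper crypt and surface. The surface marker nuclei of the sham libraries held 83.7, 132 and 118 Muc13 UMIs per 10000, against 17.4, 72.4 and 44.1 in the other nuclei. In PL8177 the surface marker nuclei held 41.1, 65.7 and 56.0, against 12.1, 12.3 and 23.2. In placebo they held 31.9, 34.2 and 31.0, against 7.15, 5.39 and 8.23.

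The surface marker nuclei were thus higher in 9 of 9 libraries, by a median ratio of 3.76 (1.82 to 6.36). In edgeR with the library as a block, the log2 difference was 2.16 (SE 0.198, adjusted p = 6.62e-08). This contrast called many genes, 1479 of 6253 (23.7%) higher and 1581 (25.3%) lower. The surface marker nuclei were also the deeper ones in every library, and with all nuclei thinned to 300 UMIs before the split the difference was 1.56 (edgeR adjusted p = 8.84e-10).

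The order of treatments was found on both sides of that split, with an overlap on 1 of them. In surface marker nuclei sham averaged 111 ± 24.7 UMIs per 10000, PL8177 54.3 ± 12.4 and placebo 32.4 ± 1.68 (SD, n = 3 each). In the other nuclei they were 44.6 ± 27.5, 15.9 ± 6.35 and 6.92 ± 1.43, where sham library GR12 (17.4) fell below PL8177 library GR44 (23.2). Refitted on the surface marker nuclei alone, edgeR gave 1.88 for sham against placebo (SE 0.298, adjusted p = 0.181) and 0.86 for PL8177 against placebo (adjusted p = 0.451). On the other nuclei alone it gave 3.00 (SE 0.536, adjusted p = 0.0518) and 1.38 (adjusted p = 0.415). Whether the change differed between both classes of nuclei was not tested, and other genes with the same order in them were not counted. The surface markers themselves summed to 188 ± 38.6 UMIs per 10000 in the sham libraries, 158 ± 31.9 with PL8177 and 131 ± 41.9 with placebo (SD, n = 3 each), and their part in the Muc13 differences was not tested beyond this split.

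The Muc13 differences in cycling and goblet marker nuclei were smaller in size and changed with depth. Nuclei with at least 1 UMI of 16 mitotic markers were lower in Muc13 in 7 of 9 libraries, with a median ratio of 0.874 and a log2 difference of -0.31 (SE 0.0985, edgeR adjusted p = 0.294; 1 of 6124 genes, 0.0163%, was called lower in these nuclei). After thinning the difference was -0.58 and passed the threshold (edgeR adjusted p = 0.00196). Enterocyte nuclei with at least 2 UMIs of the goblet markers, such as the trefoil peptide Tff3, were higher in Muc13 in 7 of 9 libraries, with a median ratio of 1.20 and a log2 difference of 0.16 (SE 0.103, edgeR adjusted p = 0.542). The goblet marker nuclei were deeper than the rest in all libraries, and after thinning that difference was -0.03.

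**Figure D3:**
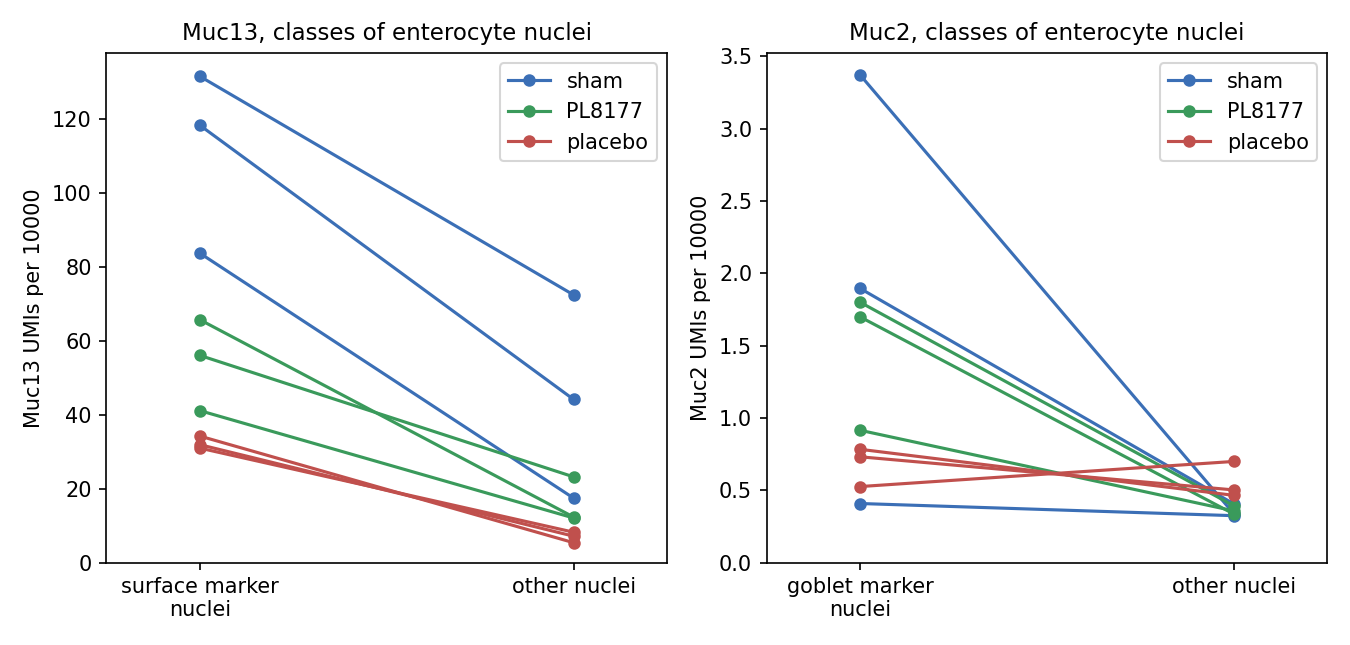
UMIs per 10000 of Muc13 in surface marker and other enterocyte nuclei, and of Muc2 in goblet marker and other enterocyte nuclei, with a line joining both classes of each library. Muc13 is higher in surface marker nuclei in 9 of 9 libraries and Muc2 is higher in goblet marker nuclei in 8 of 9.

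Muc2, the gel-forming mucin, was sparse in the enterocyte tables, and its level over all enterocyte nuclei did not separate the treatments. Its levels were 0.358, 0.557 and 0.484 UMIs per 10000 in the sham libraries, 0.470, 0.623 and 0.494 in the PL8177 libraries and 0.554, 0.689 and 0.520 in the placebo libraries. The 3 groups overlapped, and the exact permutation p was 0.3 between sham and placebo and 0.5 for either comparison with PL8177. The edgeR log2 differences were -0.19 (SE 0.279, adjusted p = 0.814), 0.05 (SE 0.264, adjusted p = 0.978) and 0.24 (SE 0.274, adjusted p = 0.890) in that order.

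A Muc2 UMI was seen in 2.30% to 9.80% of the nuclei of the sham libraries, 4.19% to 9.21% of PL8177 and 6.04% to 12.5% of placebo. After thinning the shares were 1.30%, 1.62% and 0.987% in sham, 1.16%, 1.91% and 1.49% in PL8177 and 2.48%, 3.70% and 2.47% in placebo. Every placebo library lay above all others (exact permutation p = 0.1, the smallest possible). These shares rest on 6 to 33 nuclei with a Muc2 UMI in each library. How many genes separate in this way by thinned detection was not counted, so the separation is not read as particular to Muc2. In nuclei under 500 UMIs the Muc2 level ran from 0 to 0.667 UMIs per 10000 in sham, 0.723 to 1.35 in PL8177 and 1.22 to 2.51 in placebo. The sham values were the lowest, but they rest on few counts. The 0 was GR12, with 13 nuclei and 4741 UMIs in this class, and the other libraries had 6 to 13 Muc2 UMIs each. No order of treatments is read from this class, and in the other 3 depth classes the treatments overlapped. On thinned sums edgeR gave Muc2 a log2 difference of -0.96 for sham against placebo (adjusted p = 0.217) and -0.76 for PL8177 against placebo (adjusted p = 0.591). Over all enterocyte nuclei the unthinned share, 7.28%, was below the 16.8% (95% interval 12.4% to 22.0%) of the 250 nuclei of the T cell tables that carried T cell markers, a cell type that should lack Muc2. No expression by enterocytes is therefore read from the enterocyte share. Without GR23 the share of T cell marker nuclei was 17.0%. The part of nuclei rich in goblet markers in either share was not tested. Intervals cover counting error only.

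Muc2 RNA was unevenly spread among enterocyte nuclei, and it was higher where goblet markers were present. The goblet marker nuclei of the sham libraries held 0.409, 3.37 and 1.90 Muc2 UMIs per 10000, against 0.325, 0.336 and 0.405 in the rest. In PL8177 they held 0.915, 1.70 and 1.80, against 0.357, 0.335 and 0.392. In placebo they held 0.732, 0.526 and 0.783, against 0.502, 0.700 and 0.465. GR23 was the library with the lower value in goblet marker nuclei, but that value is 1 Muc2 UMI in 11 nuclei. The 2 largest values, in sham libraries GR13 and GR15, also rest on few counts, with 11 UMIs in 30 nuclei and 5 UMIs in 31 nuclei. PL8177 library GR44 had 10 UMIs in 43 nuclei. In the rest, every placebo library lay above every sham and every PL8177 library. In goblet marker nuclei every PL8177 library lay above every placebo library, while sham overlapped with both. Genes that separate in this way within these classes were not counted, so neither separation is read as particular to Muc2.

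The goblet marker list did not contain Muc2. The median ratio was 2.56 (0.752 to 10.0), and edgeR with the library as a block gave a log2 difference of 1.32 (SE 0.148, adjusted p = 3.90e-15), with 58 of 6110 genes (0.949%) called higher in the goblet marker nuclei. Of these 58, 8 were goblet markers, which define the class. The class, set by raw UMIs, held 25.9% of the nuclei of GR12, the deepest library, and 3.63% of those of GR13, the shallowest. After thinning Muc2 had too few counts to be tested. Only 16 enterocyte nuclei had at least 5 Muc2 UMIs, and they held 17.0% of all Muc2 UMIs. In surface marker nuclei Muc2 was lower in 9 of 9 libraries, with a median ratio of 0.639, but the difference of -0.27 (SE 0.143, edgeR adjusted p = 0.107) missed the threshold. In cycling nuclei it was higher in 7 of 9 libraries by 0.64 (SE 0.162, edgeR adjusted p = 0.0845; 10 of 6124 genes, 0.163%, were called higher). That difference passed the threshold without GR15, GR23 or GR24 (edgeR adjusted p = 0.00952, 0.0132 and 0.0371). Of the 10 genes called higher in cycling nuclei, 6 were cycling markers, which define the class.

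Muc1 and Muc20 were at the limit of what these libraries could show. Muc1 had 36 UMIs in 35 of the 8782 enterocyte nuclei (0.399%), with 7, 6 and 2 UMIs in the sham libraries, 3, 8 and 0 in PL8177 and 4, 1 and 5 in placebo. That share was below the 2.0% of the T cell marker nuclei, so no expression by enterocytes is read from it. Muc20, a transmembrane mucin that binds the receptor Met, had 0 UMIs in 8782 enterocyte nuclei, which allows a share of nuclei with a captured Muc20 UMI of up to 0.0342% and sets no limit on the share that express it, and 3 UMIs in the T cell tables. Neither gene had enough counts for the fits across genes. In the exact permutation tests the Muc1 level did not overlap between sham (0.0220, 0.134 and 0.0404 UMIs per 10000) and PL8177 (0.0168, 0.0194 and 0), and its thinned share did not overlap between sham (0.324%, 0.442% and 0.164%) and placebo (0.150%, 0 and 0), with p = 0.1 for each, the smallest possible. Each other Muc1 comparison of enterocytes overlapped, and all rest on 0 to 8 UMIs a library. Among the 9424 genes tested, which leave out Muc1, 566 had a level in every sham library above every PL8177 library. The number of genes that separate by thinned share was not counted. Neither separation is read as a result on Muc1.

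Muc13 and Muc2 lay on opposite sides of the comparison of cell types. Muc13 in the T cell tables was at 3.73, 18.1 and 7.05 UMIs per 10000 in sham, 11.7, 8.83 and 10.8 in PL8177 and 3.17, 26.1 and 4.75 in placebo. It was lower there than in the enterocyte table of the same library in 8 of 9 libraries, and the exception was GR23 with 26.1 against 24.7. Paired by library, edgeR put Muc13 higher in enterocytes by 2.66 (SE 0.391, adjusted p = 1.86e-05), where 1076 of 5194 genes (20.7%) were called higher and 693 (13.3%) lower. Without GR23 the difference was 3.07, and with only T cell marker nuclei it was 4.17. Since T cell marker nuclei were also chosen for few enterocyte markers, the larger gap is in part set by that choice. A Muc13 UMI was seen in 28.0% of T cell marker nuclei (95% interval 22.5% to 34.0%; median 726 UMIs; 30.04% without GR23) and in 76.7% of enterocyte nuclei. After thinning these shares were 8.15% and 50.9%. Among the other nuclei of the T cell tables without GR23 the thinned share was 25.5%. The share in T cell marker nuclei is not an independent background for Muc13, because their choice favours nuclei with little enterocyte RNA.

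Muc2 was higher in the T cell tables in 8 of 9 libraries. Its levels there were 4.93, 0 and 2.23 UMIs per 10000 in sham, 1.61, 3.53 and 1.89 in PL8177 and 11.9, 1.04 and 3.69 in placebo. The exception, sham library GR13, had 0 Muc2 UMIs among 8307, where 3 UMIs would already be 3.61 per 10000. edgeR gave a log2 difference of -2.32 for enterocytes against T cells (SE 0.374, adjusted p = 5.57e-05), and -2.73 without GR23. With T cell marker nuclei alone the difference stayed at -2.32.

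A small number of nuclei carried most of the Muc2 UMIs of the T cell tables. The 18 of 1018 nuclei with at least 5 Muc2 UMIs held 64.6% of the 328 UMIs, and without GR23 16 of 333 nuclei held 73.7% of 247. These 18 nuclei came from 5 libraries, with 9 in GR12, 2 in GR43, 3 in GR22, 2 in GR23 and 2 in GR24. In 5 of 5 their summed goblet markers were higher than in the other nuclei of the same table. In that order these were 19.99 against 4.69 UMIs per 10000, 9.60 against 7.47, 32.6 against 4.07, 175 against 1.70 and 41.8 against 10.6. The summed T cell markers of the 18 nuclei were lower in 5 of 5, at 45.2 against 61.5, 13.1 against 26.5, 18.9 against 68.0, 1.13 against 2.14 and 29.2 against 52.5. Most of these comparisons rest on 2 or 3 nuclei.

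**Figure D4:**
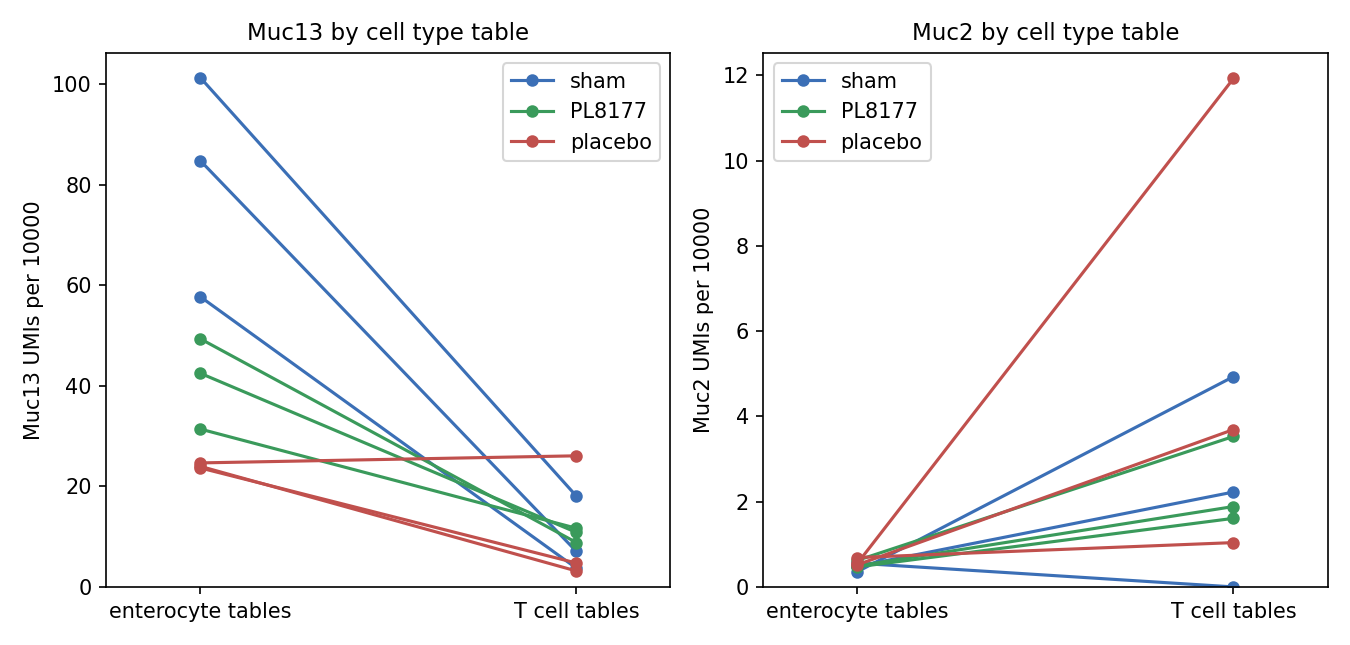
Muc13 and Muc2 UMIs per 10000 in the enterocyte and T cell tables, with a line joining both tables of each library. Muc13 is higher in enterocytes in 8 of 9 libraries and Muc2 is higher in the T cell tables in 8 of 9; placebo library GR23 is the exception for Muc13.

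In the T cell tables no treatment effect on a mucin was called. edgeR called 0 of 1828 genes (0%) in each comparison (90, 18 and 22 at an unadjusted p under the threshold). The Muc13 log2 difference was -0.78 between sham and placebo, -0.43 between PL8177 and placebo and 0.36 between PL8177 and sham (edgeR adjusted p = 0.986, 0.999 and 0.999). Without GR23 the first of these became 0.89 and the second 1.38. The Muc2 differences were -0.82, -1.13 and -0.31, and -1.17, -1.58 and -0.40 without GR23. Without that library edgeR called 0, 0 and 1 genes. The test of whether the treatment effect on Muc13 differed between the cell types, T cells minus enterocytes, gave -2.26 for sham against placebo (SE 0.907, edgeR adjusted p = 0.602), and without GR23 it was -1.13.

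Genes that build, bind or might transcribe mucins were read from 4 fixed lists, in which edgeR and DESeq2 each called 0 genes in all 3 treatment comparisons of enterocytes. Of 41 enzymes and transporters of mucin O-glycosylation, 28 were tested, with a median log2 difference of 0.08 for PL8177 against placebo and 0.25 for PL8177 against sham. The members with the largest differences between sham and placebo were the galactosyltransferase B4galt1 at 1.27 (SE 1.26), Galnt16, an enzyme that adds the first sugar, at -1.26 (SE 0.889), the branching enzyme Gcnt3 at -0.98 (SE 0.845) and the sialyltransferase St3gal4 at 0.71 (SE 0.308). B4galt1, Galnt16 and Gcnt3 had only 156, 89 and 130 UMIs over all enterocyte libraries, so their differences rest on few counts. For St3gal4 the difference between PL8177 and placebo was 1.06 (SE 0.308, edgeR adjusted p = 0.348).

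All 14 mucin partners, which are receptors, adaptors, lectins and proteases known to bind or cut transmembrane mucins, were tested. Their median difference was 0.18 between sham and placebo and 0.38 between PL8177 and placebo, against -0.02 and -0.01 over all genes. The fitted value was above 0 for 13 of the 14 in PL8177 against placebo, with none called, where 48.7% of all genes tested were above 0. The 14 values come from the same libraries, and a joint shift of the list was not tested. The galectin Lgals3 was at -1.06 in sham against placebo (SE 0.434, edgeR adjusted p = 0.354), the galectin Lgals4 at 0.70 (SE 0.303, edgeR adjusted p = 0.382) and the adaptor Grb2 at 0.60 (SE 0.219, edgeR adjusted p = 0.313). The membrane protease St14 was at 0.45 (SE 0.240, edgeR adjusted p = 0.448).

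Of 20 epithelial transcription factors, all tested, the median difference was -0.17 between sham and placebo and 0.13 between PL8177 and placebo. Elf3, an epithelial ETS factor, was at 14.7, 102 and 58.5 UMIs per 10000 in the sham libraries, 10.9, 8.08 and 23.9 in PL8177 and 7.40, 21.2 and 16.9 in placebo. Sham library GR12 fell within the range of the other treatments, and the log2 difference from placebo was 2.17 (SE 0.651, edgeR adjusted p = 0.231). Hnf4a, a nuclear receptor of enterocyte differentiation, was at 13.3, 34.6 and 25.5 in sham, 11.5, 12.8 and 21.0 in PL8177 and 11.6, 15.8 and 15.3 in placebo, with a difference of 0.97 (SE 0.376, edgeR adjusted p = 0.337). For both factors the higher sham values came from GR13 and GR15, the shallowest libraries. The part of depth in them was not tested. Foxa3 was at 1.11 and Foxa1 at -0.76 in sham against placebo. Each of these 2 genes had only 80 UMIs over all enterocyte libraries, so both differences rest on few counts.

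In surface marker nuclei against the other nuclei, 8 of the 14 partners were called higher by edgeR and 0 lower, with a median of 0.59, where 23.7% of all genes tested were called higher and 25.3% lower, with a median of -0.04. Among these were St14 at 1.44 and, from the glycosylation list, St3gal4 at 1.80. The glycosylation list as a whole had 5 higher and 3 lower of 18 tested, close to the shares over all genes, and the transcription factors 6 and 6 of 17. In enterocytes against T cells, 9 of 14 partners, 5 of 16 glycosylation genes and 7 of 13 transcription factors were called higher, with 0, 2 and 1 called lower, against 20.7% and 13.3% of all genes tested. The glycosylation counts lie near those shares. In cycling and in goblet marker nuclei no gene of the 4 lists was called.

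Over the 9 enterocyte libraries, the genes whose log2 CPM was most like that of Muc13 among 9424 were Nsmce1 (Pearson r = 0.980), Prpf6 (0.969), Ube2d3 (0.968), Frmd8 (0.965) and Rara (0.962). For Muc2 they were RGD1624210 (0.876), Ttc21b (0.850) and Cul9 (0.838). Muc13 and Muc2 had an r of 0.00487 with each other. These values are descriptions over 9 points that share the treatment groups and the depth of their libraries.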

How the data were processed

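Nuclei from flash-frozen colon were sequenced with 3′ 10x Genomics libraries. The authors made the deposited UMI counts per gene and nucleus with Cell Ranger 6.0.1 on the rat reference Rnor 6.0, introns included, then applied CellBender and removed genes found in fewer than 3 cells, nuclei with fewer than 200 genes and nuclei at or above 5% mitochondrial reads; per the labels, Seurat 4.0.3 was also used. The cell types are those of the deposited tables. The placebo T cell table held 15108 of the 17388 genes, so fits with T cells used the genes complete in every table.

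UMIs were summed over the nuclei of each library tag, and each tag was taken as 1 rat. This is an assumption: the labels give 3 colons a treatment and do not list the tags, and p-values measure the spread between these 9 tags. edgeR 4.0.16 quasi-likelihood tests (TMM scaling, filterByExpr, Benjamini-Hochberg adjustment over all genes tested) were run in R 4.3.3. A gene was called where the adjusted p was under 0.05 and the log2 fold change, in size, over 0.5 for enterocytes or over 1.5 for T cells. Tests between classes of nuclei or between cell types carried the library tag as a block, since both sums of a tag come from 1 library. Single values were compared by exact two-sided permutation tests over libraries, and shares of nuclei carry 95% Clopper-Pearson intervals. For comparisons across depths, each nucleus was thinned to 300 UMIs, which left out 252 sham, 207 PL8177 and 103 placebo enterocyte nuclei. Doublets were called per library (57 of 9800 nuclei) and kept in the main values. The alternatives were DESeq2 1.42.0, no filter on low counts, thinning, stricter nuclei, marker-defined nuclei and leaving out each library. The fits were tested on simulated data.

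The members and gene lists were chosen with earlier results of these data known. Values were given for the 4 genes of each list with the largest change between sham and placebo among those tested, and for the genes whose log2 CPM (TMM) correlated best with each mucin.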

Additional observations from a re-analysis of the deposited data

How the results depend on the processing

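The number of genes called between treatments depended on the test and on the filter. Sham against placebo gave 0 calls by edgeR, 107 by DESeq2, 51 without a filter on low counts, 14 with thinned nuclei, 6 in the nuclei below the surface marker median (added after seeing the data) and 0 to 8 when each library was left out in turn. PL8177 against placebo gave 50 by DESeq2 and 8 without a filter, and PL8177 against sham gave 4, 10 and, leaving out libraries, 0 to 2. The Muc13 difference between sham and placebo passed the threshold with DESeq2 (1.95), without a filter (1.88), with thinned nuclei (2.42) and without GR12, GR41 or GR44 (adjusted p = 0.0277, 0.0492 and 0.0431 in edgeR), over a leave-one-out range of 1.66 to 2.15. Over all alternatives it ran from 1.64 to 3.00 (adjusted p 1.42e-07 to 0.379), that of PL8177 against placebo from 0.81 to 1.38 (0.0976 to 0.803) and that of PL8177 against sham from -1.62 to -0.71 (0.199 to 1.00). Thinning moved the detection gaps of Muc13 to 39.4 points for sham minus placebo and -20.0 for PL8177 minus sham. It also moved the calls for cycling nuclei to 35 from 11 (6 to 22 leaving out libraries), for goblet marker nuclei to 1 from 67, and for surface marker nuclei to 1123 from 3060, with Muc13 at -0.58 in cycling and -0.032 in goblet marker nuclei, the latter reversed.

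Small Muc2 differences changed sign. PL8177 against placebo was -0.44 without goblet marker nuclei, -0.76 with thinned nuclei, -0.12 below the surface marker median and -0.077 to 0.14 leaving out libraries. Sham against placebo ran from -0.40 to 0.049 and PL8177 against sham from -0.0030 to 0.46. In cycling nuclei the adjusted p of Muc2 ran from 0.00952 to 1.00. In T cells, leaving out libraries took Muc13 from -1.48 to 0.89, from -0.90 to 1.38 and from -0.082 to 0.98 in the 3 comparisons, and Muc2 from -1.95 to 0.33, from -1.67 to 0.025 and from -0.82 to 0.78. The difference between cell types in the treatment effect ran from -1.66 to 0.39 for Muc13 in PL8177 against placebo, was -0.031 with T cell marker nuclei in PL8177 against sham, and for Muc2 ran from -1.94 to 0.24 in sham against placebo and from -1.15 to 0.89 in PL8177 against sham. Its calls ran from 0 to 3 in sham against placebo and 0 to 4 in PL8177 against sham, and those of PL8177 against sham in T cells from 0 to 1. The cause of these changes was not tested.

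For enterocytes against T cells the pairing comes from the library, which gave both sums. Without that block the Muc13 difference was 2.50 (adjusted p = 2.59e-04), the Muc2 difference -2.60 and the calls 1635 against 1769, and no call on either mucin changed. Leaving out libraries gave 1160 calls without GR12 and 2780 without GR23. The tags carry no number that pairs rats across treatments, so no paired analysis was possible there because the treatments share no rat. With 3 libraries a treatment the exact tests cannot go below 0.1, and Muc1, Muc20 and thinned Muc2 were limited by depth.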

Other observations

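Of 16 other genes of the mucin family, 5 were counted in the tables. Cd164, a small sialomucin of many cell types, had 3196 UMIs in the enterocyte tables, at 2.09, 3.36 and 3.23 UMIs per 10000 in sham, 1.52, 1.73 and 2.33 in PL8177 and 1.80, 2.13 and 1.57 in placebo. Its log2 difference between sham and placebo was 0.83 (SE 0.278, edgeR adjusted p = 0.268), and it was higher in surface marker nuclei than in the others by 1.19 (edgeR adjusted p = 7.81e-08). The other genes were close to absent: Emcn, the mucin of endothelial cells, had 5 UMIs in enterocytes, Mucl3 had 2, Muc5b had 1 and Muc6 had 0.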
